A study of Mus musculus with 14 samples.

Results

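The comparison described here sets Trop2-positive against Trop2-negative luminal cells sorted from the prostates of young mice. Its members are 4 of the 14 libraries of the series, 2 of each sort, chosen by their labels and not by any measured value. Both sorts came from C57BL/6 mice aged 3 months, and the labels name no transgene, treatment or castration for any group. The series also holds the same luminal sorts at 24 months (2 libraries each) and stromal cells at both ages (3 libraries each). Of these, the old luminal libraries were used here to estimate the spread of each gene and to compare the 2 ages. The labels describe the 2 libraries of a luminal sort as biological duplicates. The number of animals in each library, the prostate lobes and the other sort markers are not given in the sources used here. The p-values therefore measure the spread between these libraries, which may in part be technical.

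Trop2 is a surface glycoprotein of epithelial cells. The luminal layer of the mouse prostate changes along the ducts. Luminal cells near the urethra carry surface proteins such as Trop2, Sca-1 (Ly6a) and Psca, and form organoids and regrow ducts well. Luminal cells of the distal ducts make the proteins of the seminal fluid in large amounts, under the control of androgen, and pass them through the endoplasmic reticulum and Golgi apparatus.

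The 4 young luminal libraries held between 6099426 and 7238467 expected counts, and the nuclear ribosomal transcript Rn45s took between 7.86% and 10.8% of them. Levels below are CPM, the counts scaled to library size after TMM normalisation, as the 2 libraries or as the mean ± SD of both (n = 2 each). Differences are log2 of the Trop2-positive over the Trop2-negative level ± SE, tested with edgeR by quasi-likelihood, with p adjusted after Benjamini and Hochberg over 13598 genes. A gene is called higher or lower at an adjusted p under 0.05. A call is termed stable where the gene was also called in each of 4 further fits that left out 1 young library. Counts of calls without a library are given in the order Trop2-negative library 1, Trop2-negative library 2, Trop2-positive library 1 and Trop2-positive library 2. Fewer cells of a type and less RNA per cell cannot be told apart in such sorted samples.

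Known markers of both sorts followed the labels in all 4 libraries. The keratin gene Krt15 stood at 896 and 724 against 6.40 and 10.7 CPM, and Ppp1r1b, a phosphatase inhibitor, at 275 and 201 against 6.56 and 10.4 CPM. Svs2, a secreted protein of the seminal fluid, ran the other way at 3805 and 6423 against 52465 and 57433 CPM. None of these 3 markers overlapped between the sorts, as was the case for 54.3% of all genes tested.

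Both sorts carried markers of luminal epithelium. Krt18, a keratin of luminal cells, stood at 2604 ± 36.2 against 2160.5 ± 187 CPM and was not called (log2 difference 0.27 ± 0.16, adjusted p = 0.331). Epcam, an epithelial adhesion protein, was higher in Trop2-positive cells at 1492 ± 222 against 667 ± 82.03 CPM (log2 difference 1.16 ± 0.19, adjusted p = 0.000984). Krt5, the defining basal keratin, stayed between 0.625 and 2.64 CPM in all 4 libraries and was not called. Other basal genes were higher in Trop2-positive cells. Krt14, the keratin partner of Krt5, stood at 16.9 and 18.8 against 0.468 and 0 CPM (adjusted p = 0.00111), a stable call. Trp63, the gene of the basal factor p63, stood at 5.55 and 3.79 against 0 and 0.185 CPM (adjusted p = 0.0434), a call lost without Trop2-negative library 1, Trop2-negative library 2 or Trop2-positive library 1 (adjusted p = 0.278, 0.143 and 0.141 in turn).

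Summed levels of several lists of markers of other cell types differed between the sorts. The 10 basal genes summed to 1428 and 1152 CPM in the positive and 806 and 836 CPM in the negative libraries, and 4 of the 9 tested were higher (3, 2, 3 and 4 without a library). Dst, at 997 and 819 against 702 and 736 CPM, gave most of the basal sum and was not called. Itgb4 gave most of the rest, at 390 and 275 against 89.9 and 95.4 CPM. The 8 urothelial genes summed to 232 and 198 against 83.8 and 85.0 CPM, with Upk3b at 0 in all 4 libraries. Upk1a and Upk1b gave most of the urothelial sum, Upk1a was not called, and no urothelial call was stable. The 10 fibroblast genes ran the other way, at 76.8 and 71.2 against 234 and 118 CPM, and none of their calls was stable. The 9 neuroendocrine genes summed to 7.49 and 9.33 against 23.9 and 17.7 CPM, with Scg2 and Neurod1 at 0 and no stable call. The 8 seminal vesicle genes, among them Svs2, Svs5 and Pate4, summed to 6114 and 9733 against 72223 and 80771 CPM, and these 3 were lower in every fit without a library. The 11 immune genes summed to between 10.5 and 14.6 CPM with Cd3e and Tyrobp at 0, the 8 endothelial genes to at most 6.87 CPM with Cldn5 at 0, and the 8 smooth muscle genes to at most 8.97 CPM. The part of the basal, urothelial, fibroblast, neuroendocrine and seminal vesicle cells in the results below was not tested.

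Trop2-positive cells differed from Trop2-negative cells in 1620 genes, or 11.9% of those tested. Of these, 1076 were higher (7.91% of genes tested) and 544 lower (4.0%), and 1010 (7.43%) also changed more than 2-fold. Higher genes were thus 66.4% of the calls, and 88.4% of those from limma on log2(TPM + 1), a scale that moved the median of all genes to 0.23. Without Trop2-positive library 2 they were 51.7%, with 1353 genes higher and 1265 lower. Most calls were moderate. A log2 difference between 0.5 and 1 was seen in 394 genes with higher and 182 with lower levels, one between 1 and 2 in 349 and 201, one between 2 and 4 in 199 and 125, and one above 4 in 106 and 30. For 535 of the called genes the whole 95% interval lay beyond a 2-fold change. The shares of 7.91% higher and 4.0% lower are the background for the counts of list members below.

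The balance between higher and lower genes moved with abundance. Among 2911 genes under 4 CPM, 1.37% were higher and 1.41% lower. Among 530 genes of at least 256 CPM, 26.4% were higher and 6.23% lower. The median log2 difference was -0.18 in the first class and 0.21 in the second, against -0.02 over all genes tested.

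**Figure D1:**
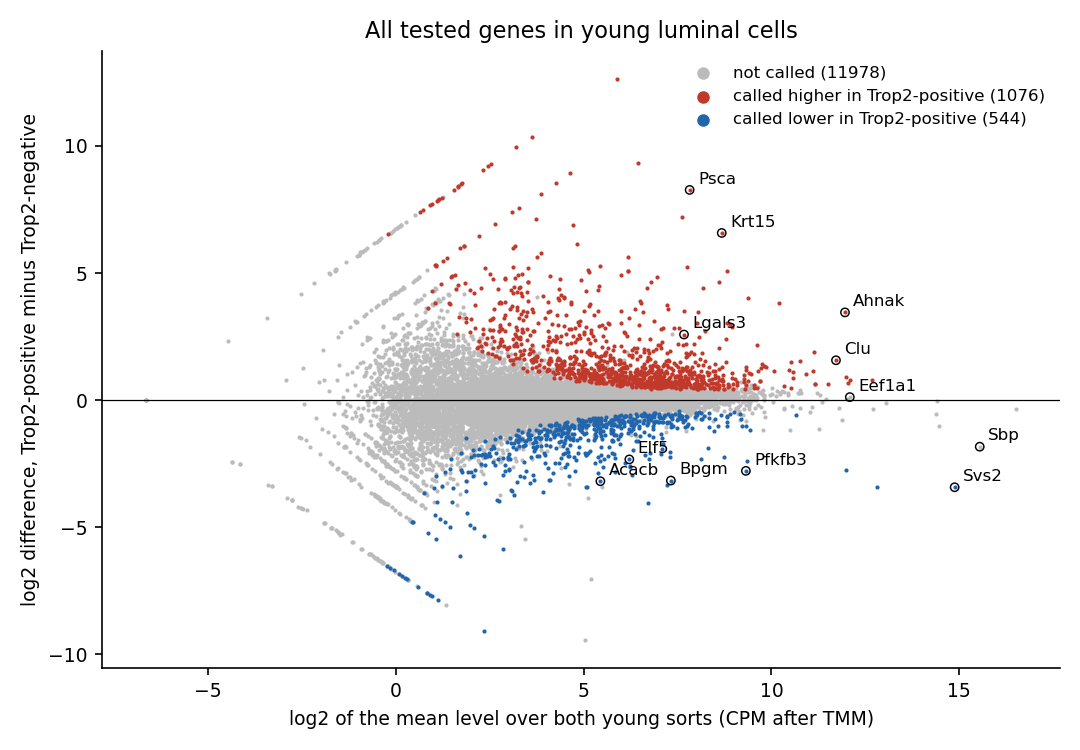
Each point is 1 of the 13598 tested genes. The horizontal axis is log2 of the mean CPM over both young sorts (with 0.01 CPM added), the vertical axis the log2 difference between Trop2-positive and Trop2-negative cells. Red points are the 1076 genes called higher and blue points the 544 called lower. Higher genes form the denser band on the right, while the secretory gene Svs2 lies far below 0 at the right edge.

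The count of calls rested in part on single libraries. It was 683, 770, 967 and 2618 without a library, and 551 calls were stable, of which 408 were higher and 143 lower. The 2 Trop2-positive libraries were less alike than the 2 Trop2-negative ones. Among 6483 genes over 20 CPM, 169 differed more than 2-fold between the positive libraries and 40 between the negative libraries. Trop2-positive library 2 lay nearer to the Trop2-negative cells than library 1 did for 78.5% of genes called higher (845) and 71.0% of those called lower (386).

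Secretory transcripts took a smaller share of the messenger RNA in Trop2-positive cells. The 4 genes Sbp, Svs2, Svs5 and Pate4, which encode proteins secreted into the seminal fluid, held 27.6% and 27.3% of all TPM in the Trop2-negative libraries. In Trop2-positive libraries 1 and 2 they held 4.46% and 9.36%. TPM corrects for transcript length, so these shares compare numbers of transcripts. Sbp alone, the gene of spermine-binding protein, gave 16.3% and 15.9% in the negative and 3.38% and 7.68% in the positive libraries.

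Svs5 stood at 853 and 1604 CPM in the Trop2-positive libraries and 12253 and 13883 CPM in the Trop2-negative libraries (log2 difference -3.41 ± 0.33, adjusted p = 7.70e-05). Pate4 stood at 919.5 and 1167 against 6981 and 7201 CPM (log2 difference -2.77 ± 0.23, adjusted p = 5.94e-06). Both calls were stable, as was that of Svs2. Sbp stood at 12156 and 29719 against 72151 and 76781 CPM, with the positive libraries more than 2-fold apart, and was not called (log2 difference -1.83 ± 0.67, adjusted p = 0.165). It shares 20.5% of its 50-base windows with other genes. Svs1, a marker of the seminal vesicle, was at 0.142 and 0 CPM in the positive and 0 and 132 CPM in the negative libraries, so negative library 2 stood apart in it. The same library was highest in every other gene of the seminal vesicle list. Among these, Svs2, Svs5 and Pate4 were called, and 4 were not. Svs4 stood at 531 and 533 against 503 and 1930.3 CPM, Svs6 at 4.69 and 4.29 against 13.9 and 117 CPM, Svs3a at 0 and 0.990 against 0.203 and 42.4 CPM and Svs3b at 1.14 and 0 against 7.14 and 32.1 CPM. A further fit left out the 3 luminal libraries high in Svs1, among them young Trop2-negative library 2. Young Trop2-negative library 1 then stood alone for its sort. In that fit Svs2 and Svs5 had log2 differences of -3.37 and -3.33 in that order.

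Secretory products of the prostate, as a list that holds Sbp, gave less clear differences. Of 18 tested, 1 was higher and 2 lower, or 16.7% called against 11.9% of all genes tested. None of these calls was stable, and the median log2 difference was -0.76. Pbsn, the gene of probasin, stood at 1144 and 1945 against 3092 and 3739 CPM (adjusted p = 0.171). Spink3, a protease inhibitor gene, stood at 611 and 1177 against 1977 and 2018 CPM (adjusted p = 0.0742), and Tgm4, the gene of the transglutaminase that clots semen, at 2298 and 3168 against 3316 and 6179 CPM (adjusted p = 0.328). None of these 3 genes was called.

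**Figure D2:**
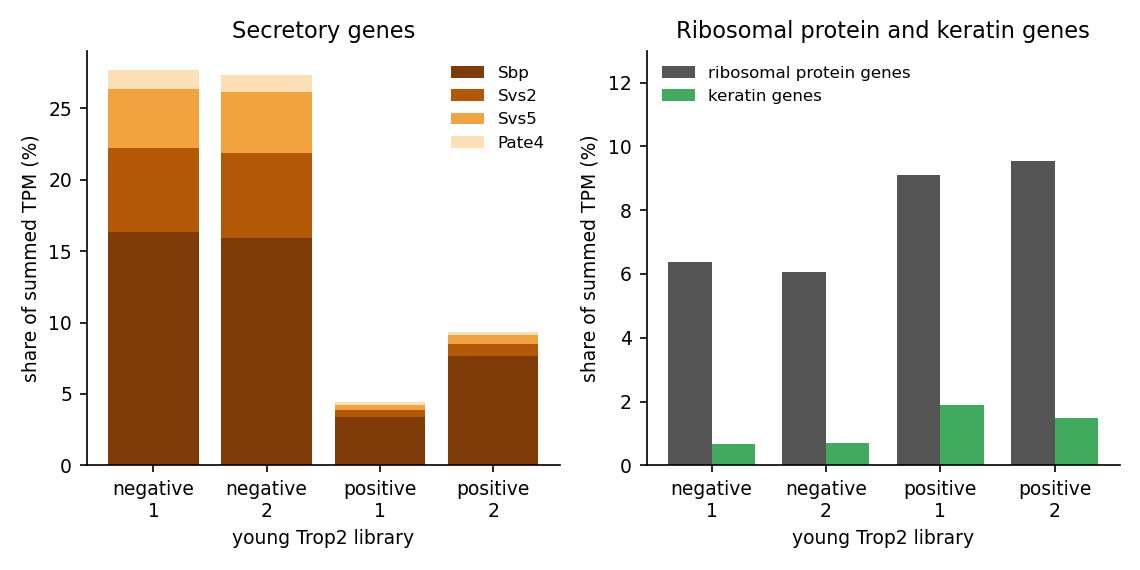
Bars give the share of all TPM in each of the 4 young libraries, in percent. On the left, 4 secretory genes are stacked and reach 27.6% and 27.3% in the Trop2-negative and 4.46% and 9.36% in the Trop2-positive libraries. On the right, ribosomal protein genes held 6.39% and 6.08% in the negative and 9.11% and 9.55% in the positive libraries, and keratin genes 0.662% and 0.703% against 1.89% and 1.49%.

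Many structural genes of the epithelium were higher in Trop2-positive cells. The largest rise in CPM among called genes was that of Ahnak, which encodes a giant scaffold protein under the cell membrane (GRCm38, chromosome 19, 8989284 to 9076914). It stood at 8613 and 5950.4 CPM in the Trop2-positive libraries and 703 and 626 CPM in the Trop2-negative libraries (log2 difference 3.45 ± 0.21, adjusted p = 3.27e-07). Anxa2, a calcium-dependent membrane binder, stood at 749.5 ± 62.1 against 143 ± 6.65 CPM (log2 difference 2.39 ± 0.15, adjusted p = 3.27e-07), and S100a10, which binds Anxa2, at 215 ± 31.7 against 51.4 ± 1.30 CPM (log2 difference 2.07 ± 0.16, adjusted p = 3.31e-06).

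Of 8 tested S100 genes, 7 were higher, 5 of them stable, with a median log2 difference of 2.08. S100 proteins bind calcium and act on the cytoskeleton. S100a6 stood at 219 and 177 against 10.3 and 8.13 CPM, S100a11 at 276 and 228 against 69.2 and 61.9 CPM and S100a14 at 76.2 and 50.5 against 3.59 and 2.77 CPM. Of 11 annexins, 7 were higher, and 3 of these calls were stable (3, 3, 3 and 8 without a library). The stable annexins were Anxa1 (3.02 ± 0.23), Anxa2 and Anxa3 (4.66 ± 0.44).

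Of 20 keratin genes tested, 11 were higher, and not all of these calls were stable. The keratin share of TPM was 1.89% and 1.49% in the positive against 0.662% and 0.703% in the negative libraries. Krt19, a keratin of simple and progenitor epithelium, stood at 2598 ± 181 against 883 ± 89.04 CPM (log2 difference 1.56 ± 0.23, adjusted p = 0.00092). Krt7 stood at 456 ± 79.5 against 81.98 ± 5.09 CPM (log2 difference 2.48 ± 0.18, adjusted p = 2.06e-06) and Krt80 at 56.3 ± 19.7 against 16.5 ± 4.74 CPM (log2 difference 1.77 ± 0.29, adjusted p = 0.000989). Krt4, a keratin of moist stratified epithelium, stood at 475 and 303 against 2.19 and 3.14 CPM, and its call was lost without Trop2-negative library 1, Trop2-negative library 2 or Trop2-positive library 1 (adjusted p = 0.0859, 0.0658 and 0.0535 in turn). Krt8, the partner of Krt18, was higher by 0.80 ± 0.17, a call lost without Trop2-negative library 1, Trop2-negative library 2 or Trop2-positive library 1 (adjusted p = 0.153, 0.0554 and 0.0757 in turn).

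Desmosome and cornified envelope genes, which bind cells together and build the tough shell of squamous cells, were higher in 15 of 22 tested, and 11 of these calls were stable. Their median log2 difference was 1.80. Sfn, the gene of stratifin, stood at 639.7 and 401 against 62.9 and 93.5 CPM (log2 difference 2.74 ± 0.26, adjusted p = 5.42e-05). Lgals3, a galectin gene, stood at 349 and 350.3 against 61.7 and 55.1 CPM (log2 difference 2.58 ± 0.14, adjusted p = 2.52e-07). The envelope linkers periplakin (Ppl) and envoplakin (Evpl) were higher by 1.84 ± 0.21 and 1.17 ± 0.17, and Jup, the plakoglobin gene of desmosomes and adherens junctions, by 0.85 ± 0.13. Krt23, a keratin gene of the list, stood at 344 and 218 against 27.8 and 65.2 CPM and was not called (adjusted p = 0.124).

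Sprr1a, a small proline-rich precursor of the envelope, stood at 915 and 780.4 CPM in the Trop2-positive libraries and 108 and 106 CPM in the Trop2-negative libraries (log2 difference 2.98 ± 0.34, adjusted p = 0.00104). Ivl, the gene of involucrin, the scaffold of the envelope, stood at 21.2 and 17.7 against 0 and 0.185 CPM. Against so few counts its ratio was 231-fold, with a 95% counting interval of 41.1 to 9159. Several Sprr2 genes are near-identical copies, and their reads cannot be assigned one by one, so they were summed, to 332 ± 20.5 against 11.8 ± 7.04 CPM. These genes lie close together. Of 18 tested S100, Sprr and envelope genes on chromosome 3 between 90511034 and 93564643, 13 were higher (GRCm38, an interval chosen after the values were seen).

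The sequences before the start sites of Sprr1a and Ivl, 2 of the higher genes, and of Svs2 and Svs5, 2 of the lower genes, are shown to compare a promoter of each kind. Each line gives 250 bases up to the start site, 5′ to 3′ on the strand of the gene, from RefSeq (GRCm38.p6). Capitals mark matches to TGANTCA, the motif of AP-1 (Fos and Jun) factors, and to TATAAA, the motif of the TATA box, each searched on both strands.
Sprr1a (chr3:92485882-92486131, minus strand): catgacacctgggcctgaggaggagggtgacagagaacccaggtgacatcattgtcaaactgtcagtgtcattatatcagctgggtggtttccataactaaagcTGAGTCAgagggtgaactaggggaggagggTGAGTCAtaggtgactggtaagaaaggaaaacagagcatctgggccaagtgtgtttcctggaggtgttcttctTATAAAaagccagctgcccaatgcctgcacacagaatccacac
Ivl (chr3:92573736-92573985, minus strand): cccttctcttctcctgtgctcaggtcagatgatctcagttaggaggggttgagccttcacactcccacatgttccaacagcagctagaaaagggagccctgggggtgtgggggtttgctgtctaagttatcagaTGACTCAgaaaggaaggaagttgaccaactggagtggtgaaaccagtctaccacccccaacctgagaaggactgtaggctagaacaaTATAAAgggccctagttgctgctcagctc
Svs2 (chr2:164238342-164238591, minus strand): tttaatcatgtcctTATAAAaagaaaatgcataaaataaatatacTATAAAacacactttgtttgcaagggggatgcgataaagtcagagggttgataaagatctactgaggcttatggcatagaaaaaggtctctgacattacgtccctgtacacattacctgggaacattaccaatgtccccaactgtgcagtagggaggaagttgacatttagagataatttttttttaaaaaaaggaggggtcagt
Svs5 (chr2:164332515-164332764, plus strand): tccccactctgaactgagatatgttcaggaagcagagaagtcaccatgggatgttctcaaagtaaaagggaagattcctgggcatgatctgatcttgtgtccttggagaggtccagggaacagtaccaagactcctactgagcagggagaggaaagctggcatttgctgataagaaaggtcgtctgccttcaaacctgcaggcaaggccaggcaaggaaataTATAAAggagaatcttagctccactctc

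The motifs TGANTCA and TATAAA do not overlap in these windows. TGANTCA began 146 and 116 bases before the start in Sprr1a and 116 bases before it in Ivl, and was absent from these windows of Svs2 and Svs5. TATAAA began 43, 29 and 28 bases before the start in Sprr1a, Ivl and Svs5, and 236 and 205 bases before it in Svs2. Of 12953 RefSeq promoters that matched 10183 tested genes, 4.77% held TGANTCA. The share was 7.24% among 1063 promoters of higher genes, 4.28% among 537 of lower genes and 4.56% among 11353 of genes not called. TATAAA was in 6.94% of all promoters, 8.0% of those of higher and 8.94% of those of lower genes. These matches are a description of the letters in the windows.

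Of 21 integrin and laminin genes, 12 were higher (9, 7, 10 and 13 without a library), with a median of 0.73. Itgb4, the integrin of hemidesmosomes, stood at 390.3 and 275 against 89.9 and 95.4 CPM (log2 difference 1.84 ± 0.18, adjusted p = 1.85e-05). Integrins that activate latent TGF-beta were among the stable calls, with Itgav higher by 1.14 ± 0.14, Itgb6 by 2.95 ± 0.29 and Itgb8 by 3.95 ± 0.41. Cd44, the hyaluronan receptor, stood at 276 ± 67.9 against 20.7 ± 5.79 CPM (log2 difference 3.73 ± 0.39, adjusted p = 0.000659). Itga3 (-0.16 ± 0.14), Itgb5 (-0.02 ± 0.18) and Lamb2 (0.04 ± 0.13) were not called.

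Of 17 tight junction genes, 7 were higher (2, 3, 3 and 9 without a library), and Cldn7 (1.13 ± 0.15) and Tjp1 (0.84 ± 0.14) were the stable calls. Cldn4, a claudin gene, stood at 5781 and 4768 against 2609 and 2929 CPM, a call lost without Trop2-negative library 1 or Trop2-negative library 2 (adjusted p = 0.105 and 0.0566 in turn). Cdh1, the gene of E-cadherin, stood at 3307 and 2760.3 against 1332 and 1371 CPM (log2 difference 1.17 ± 0.16, adjusted p = 0.000231). Of 30 collagens tested, 3 were lower, or 10% against 4.0% of all genes tested. The stable call was Col7a1, the anchoring fibril collagen made by epithelial cells, at 30.6 and 34.8 against 123 and 132 CPM (log2 difference -1.97 ± 0.16, adjusted p = 3.31e-06). Col1a1, a fibroblast collagen, was lower, at a log2 difference of -1.64 ± 0.43, and -0.94 without Trop2-negative library 1, a call lost without Trop2-negative library 1 or Trop2-positive library 2 (adjusted p = 0.491 and 0.0668 in turn), and the fibroblast genes as a group summed higher in the negative libraries, as given above.

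**Figure D3:**
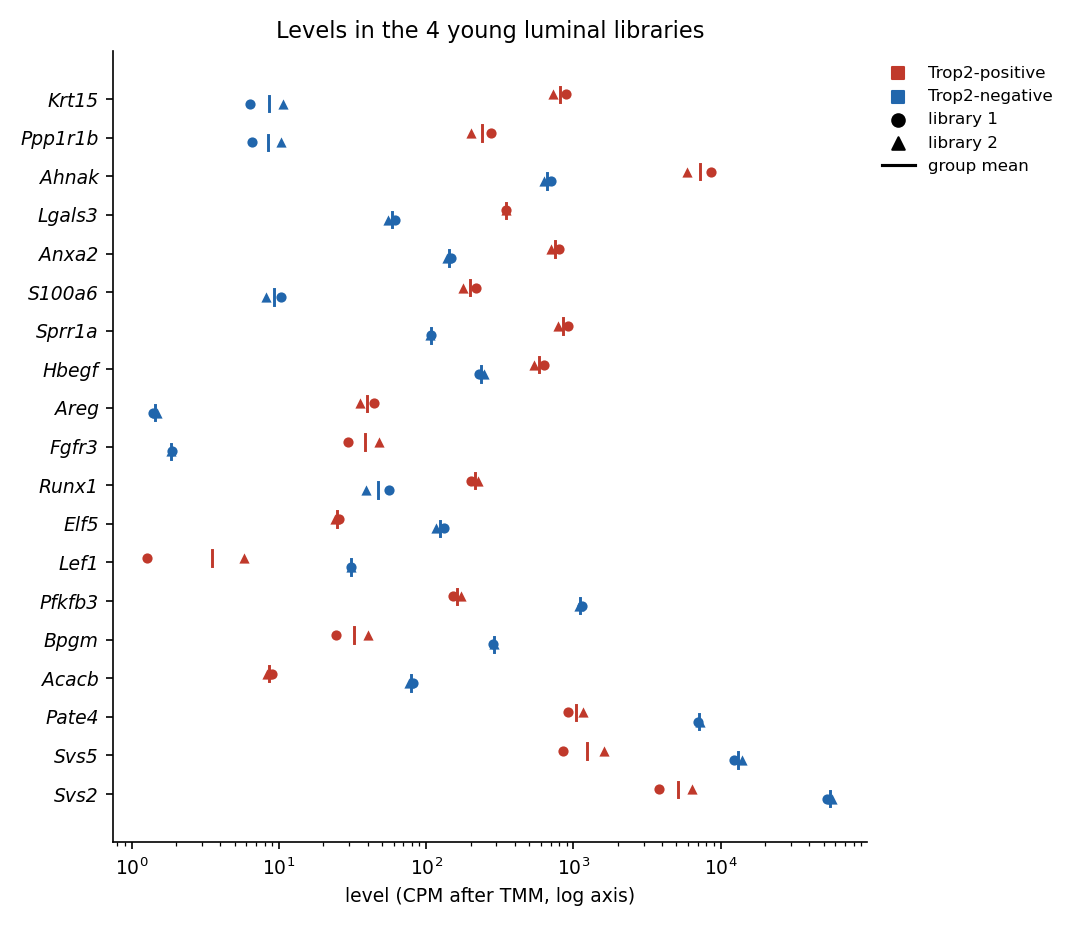
Levels of 19 genes in the 4 young libraries, in CPM on a log axis. Red symbols are Trop2-positive and blue symbols Trop2-negative libraries, circles library 1 and triangles library 2, and bars the group means. No gene shown overlaps between the sorts, as was the case for 54.3% of all genes tested, and Svs2, Svs5, Lef1 and Bpgm show positive library 2 nearer to the negative cells, as did 71.0% of genes called lower.

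Ligands of the EGF receptor and the feedback inhibitors that its signal induces were among the genes called higher. Of 7 tested EGF family ligands, 3 were higher (2, 2, 2 and 3 without a library). Areg, the amphiregulin gene, stood at 44.2 and 35.3 CPM in the Trop2-positive libraries and 1.41 and 1.48 CPM in the Trop2-negative libraries (log2 difference 4.77 ± 0.44, adjusted p = 1.26e-05). Hbegf, a heparin-binding ligand, stood at 634 and 541 against 227 and 247 CPM (log2 difference 1.31 ± 0.18, adjusted p = 0.000339). In both genes the lower positive library lay above the higher negative one. Tgfa was higher by 0.67 ± 0.20, a call lost without Trop2-negative library 1, Trop2-negative library 2 or Trop2-positive library 1 (adjusted p = 0.11, 0.325 and 0.237 in turn). Egf itself was not called (log2 difference -0.15 ± 0.18, adjusted p = 0.667).

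Of 10 EGF receptors and feedback genes, 5 were higher and 1 lower (4, 4, 4 and 5 higher without a library). Egfr, the receptor, stood at 73.1 and 48.8 against 13.9 and 19.8 CPM (log2 difference 1.86 ± 0.27, adjusted p = 0.000418), while Erbb2 (0.09 ± 0.15) and Erbb3 (0.25 ± 0.15) were not called. Spry2, a brake on receptor tyrosine kinases, stood at 124 and 111 against 22.01 and 14.8 CPM (log2 difference 2.67 ± 0.27, adjusted p = 2.89e-05). Dusp6, a phosphatase of ERK, stood at 79.5 and 76.7 against 17.02 and 9.98 CPM, and Errfi1, an inhibitor of EGFR, at 1206 and 1001 against 534 and 453 CPM. All 4 calls named here with levels were stable. Spry1 was lower, at a log2 difference of -1.14 ± 0.27, so Sprouty genes were called in both directions, but its call was lost without Trop2-negative library 1, Trop2-negative library 2 or Trop2-positive library 1 (adjusted p = 0.136, 0.0502 and 0.0926 in turn).

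The receptors of fibroblast growth factors split. Fgfr3 stood at 29.6 and 47.5 against 1.87 and 1.85 CPM (log2 difference 4.36 ± 0.44, adjusted p = 2.86e-05) and Fgfr2 at 174 and 142 against 66.5 and 73.2 CPM (log2 difference 1.18 ± 0.16, adjusted p = 0.000247), whereas Fgfr1 stood at 37.1 and 28.4 against 90.9 and 78.00 CPM (log2 difference -1.36 ± 0.23, adjusted p = 0.00154). All 3 calls were stable. Of 10 genes of FGF signalling, 4 were higher and 1 lower. Sdc1, the syndecan co-receptor, was higher by 2.26 ± 0.29, and the ligand Fgf1 was not called (log2 difference -0.33 ± 0.15, adjusted p = 0.18).

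Wnt genes were called in both directions. Wnt proteins bind Frizzled and Lrp receptors, and signalling through beta-catenin raises target genes such as Axin2, Nkd1 and Lef1. Of 19 ligands and receptors, 6 were higher (3, 2, 5 and 6 without a library), with a median of 0.02. Wnt7b stood at 58.4 and 60.1 against 21.4 and 22.6 CPM (log2 difference 1.43 ± 0.23, adjusted p = 0.00104), and Ror2, a Wnt5a receptor, at 21.6 and 15.7 against 0.781 and 0.924 CPM (log2 difference 4.43 ± 0.77, adjusted p = 0.00179). Of 15 inhibitors and targets, 5 were lower and 1 higher (2, 5, 2 and 4 lower without a library). Lef1, a target and a transcription factor of the pathway, stood at 1.28 and 5.77 against 31.1 and 30.7 CPM, with positive library 1 under library 2 (log2 difference -3.16 ± 0.58, adjusted p = 0.00674). Its log2 difference was -2.42 without Trop2-positive library 1 and -4.58 without library 2, and the call was stable. Nkd1 stood at 12.7 and 14.02 against 53.2 and 59.5 CPM, a call lost without Trop2-positive library 1 (adjusted p = 0.0733). Axin2 stood at 15.8 and 28.5 against 65.1 and 51.2 CPM, a call lost without Trop2-negative library 1 (adjusted p = 0.0716).

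Of 14 Notch genes, 5 were higher (2, 2, 2 and 7 without a library), and the receptor Notch2 was the stable one at 194 and 206 against 87.6 and 71.3 CPM (log2 difference 1.33 ± 0.15, adjusted p = 6.81e-05). Hes1, the classic target, stood at 112 and 95.03 against 58.4 and 55.6 CPM, a call lost without Trop2-negative library 2 (adjusted p = 0.0672). Of 15 genes of the Hippo pathway, which restrains the co-activator Yap1, and of its targets, 5 were higher (4, 3, 3 and 4 without a library). Notch genes were higher in 35.7% and the Hippo list in 33.3%, against 7.91% of all genes tested. F3, the tissue factor gene and a Yap1 target, stood at 593 and 383 against 44.7 and 42.7 CPM (log2 difference 3.48 ± 0.26, adjusted p = 1.28e-05), and Ptpn14 was higher by 1.54 ± 0.17. Of 22 TGF-beta and BMP genes, 3 were higher and 2 lower (3, 2, 2 and 2 higher and 0, 1, 0 and 3 lower without a library). In either direction 22.7% of the TGF-beta and BMP genes were called, against 11.9% of all genes tested. Thbs1, the gene of thrombospondin 1, an activator of latent TGF-beta, stood at 2609.7 and 1783 against 172 and 137 CPM (log2 difference 3.83 ± 0.32, adjusted p = 7.59e-05), and Tgfbr2 was higher by 1.14 ± 0.17. Bmpr1b, a BMP receptor, was lower, at a log2 difference of -0.74 ± 0.16, a call lost without Trop2-negative library 1 or Trop2-positive library 1 (adjusted p = 0.0716 and 0.0613 in turn).

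**Figure D4:**
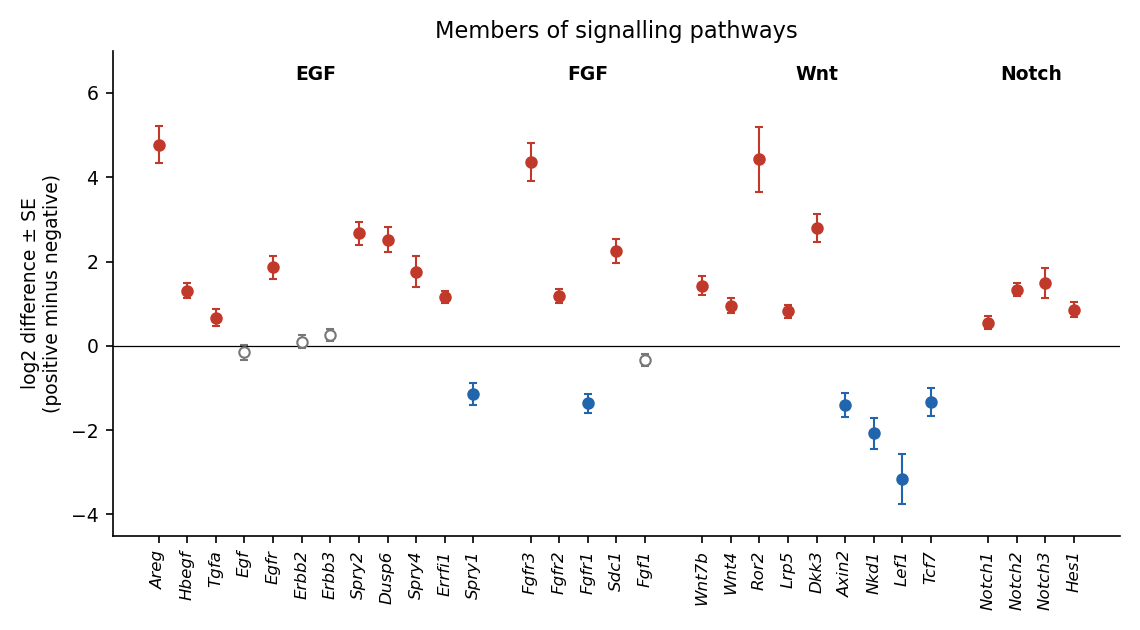
Log2 differences between young Trop2-positive and Trop2-negative cells, with SE bars, for members of 4 pathways. Filled red points were called higher, filled blue points lower, and open points were not called. Areg, Fgfr3 and Ror2 stand above 4, and the Wnt genes Axin2, Nkd1, Lef1 and Tcf7 lie below -1.

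Among 47 transcription factors of epithelia, 15 were higher and 4 lower, of which 11 and 3 were stable. Elf5, an ETS factor of secretory epithelia, stood at 25.5 and 23.9 against 132 and 116 CPM (log2 difference -2.33 ± 0.20, adjusted p = 6.32e-06), and Bhlha15 (Mist1), a regulator of secretory cell build-up, at 48.6 and 69.5 against 124 and 117 CPM (log2 difference -1.03 ± 0.19, adjusted p = 0.00222). Gata2 was lower, at a log2 difference of -0.85 ± 0.15. On the other side, Runx1 stood at 202 and 226 against 55.9 and 38.8 CPM (adjusted p = 7.19e-06), Klf5 at 416 and 411 against 137 and 133 CPM (log2 difference 1.61 ± 0.17, adjusted p = 2.98e-05) and Foxq1 at 143 and 168 against 34.7 and 41.6 CPM (log2 difference 2.03 ± 0.28, adjusted p = 0.00075). Barx2, a homeobox factor, stood at 52.9 and 51.97 against 0.781 and 0 CPM, with counts of 372 and 315 in the positive and 5 and 0 in the negative libraries. The factors Klf6 (0.30 ± 0.14), Ehf (0.05 ± 0.13) and Atf3 (-0.30 ± 0.15) were not called.

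Genes of the AP-1 factors and other immediate early genes were called unevenly. Fosl1 stood at 399 and 336 against 109.9 and 85.6 CPM (log2 difference 1.91 ± 0.21, adjusted p = 8.82e-05) and Fosb at 1234 and 1336 against 483 and 529 CPM (log2 difference 1.35 ± 0.17, adjusted p = 0.000152). Jun was lower, at a log2 difference of -0.60 ± 0.15, a call lost without Trop2-negative library 1, Trop2-negative library 2 or Trop2-positive library 1 (adjusted p = 0.0611, 0.198 and 0.0984 in turn). Fos stood at 361 and 429.8 against 347 and 441 CPM and was not called (log2 difference 0.01 ± 0.22, adjusted p = 0.992). Of 21 immediate early genes, 6 were higher and 1 lower, or 33.3% called against 11.9% of all genes tested.

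Of 32 androgen response genes, 7 were higher and 2 lower (4, 5, 5 and 8 higher and 0, 1, 0 and 7 lower without a library), with a median of 0.03. Called members were 28.1% of this list, against 11.9% of all genes tested. Fkbp5, a direct androgen target, was not called (log2 difference -0.22 ± 0.20, adjusted p = 0.543). Pmepa1 stood at 91.7 and 67.97 against 3.75 and 4.07 CPM (log2 difference 4.35 ± 0.33, adjusted p = 2.86e-06) and Foxa1, a forkhead factor that opens chromatin, at 436 and 406 against 211 and 217 CPM (log2 difference 0.98 ± 0.17, adjusted p = 0.00181), both stable calls. Ndrg1 was lower, at a log2 difference of -0.93 ± 0.22, a call lost without Trop2-negative library 1 or Trop2-positive library 1 (adjusted p = 0.228 and 0.116 in turn).

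Of 29 genes of translocation into and folding in the endoplasmic reticulum, 4 were lower (0, 1, 0 and 16 without a library), and the median was -0.35. Lower members were 13.8% of this list, against 4.0% of all genes tested. The abundant chaperones Hspa5 (2782 and 3622 against 3954 and 3970.0 CPM, log2 difference -0.31 ± 0.16, adjusted p = 0.273), Hsp90b1 (-0.25 ± 0.16) and Calr (-0.24 ± 0.15) were not called. Of 18 regulators of the unfolded protein response, 5 were lower (2, 3, 4 and 7 without a library). Among these regulators 27.8% were lower, against 4.0% of all genes tested. Ern1, the sensor Ire1, stood at 122 and 149 against 235 and 224 CPM (log2 difference -0.76 ± 0.14, adjusted p = 0.00231), whereas its target Xbp1 (-0.05 ± 0.13) and the factor Atf4 (0.01 ± 0.13) were not called.

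The enzymes that build sugar chains on secreted and surface proteins were called in both directions. Mgat4a, which branches N-glycans, stood at 169 and 171 against 10.1 and 12.6 CPM (log2 difference 3.91 ± 0.21, adjusted p = 2.08e-07), and Mgat5, another branching enzyme, at 84.2 and 92.2 against 23.3 and 21.3 CPM (log2 difference 1.98 ± 0.20, adjusted p = 2.93e-05). Mgat3, whose bisecting sugar blocks further branching, had counts of 131 and 96 in the positive and 3 and 0 in the negative libraries, a ratio of 68.3-fold, with a 95% counting interval of 23.1 to 334. Stt3b, a catalytic subunit that attaches the chain, stood at 209.6 and 289.5 against 521 and 496 CPM (log2 difference -1.03 ± 0.17, adjusted p = 0.000996), and Fut2, a fucosyltransferase, at 21.5 and 29.2 against 59.6 and 64.5 CPM (log2 difference -1.29 ± 0.22, adjusted p = 0.00167). These 5 were the genes called among 27 of the list, or 18.5% against 11.9% of all genes tested, and each call was stable.

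Some enzymes of sugar and fat metabolism were lower in Trop2-positive cells. Pfkfb3, which makes the activator of phosphofructokinase (chromosome 2, 11471433 to 11554077), stood at 153 and 172 CPM in the Trop2-positive libraries and 1144 and 1087 CPM in the Trop2-negative libraries (log2 difference -2.78 ± 0.16, adjusted p = 3.27e-07). Bpgm, which makes 2,3-bisphosphoglycerate, stood at 24.3 and 40.3 against 285 and 291 CPM (log2 difference -3.16 ± 0.21, adjusted p = 1.06e-06). Ldhb, a lactate dehydrogenase, stood at 18.3 and 23.6 against 95.9 and 87.6 CPM (log2 difference -2.13 ± 0.19, adjusted p = 7.19e-06). Of 20 glycolytic genes, 2 were higher and 2 lower (1, 1, 1 and 2 higher and 2, 2, 2 and 3 lower without a library), so 20% were called against 11.9% of all genes tested, and Gapdh (0.33 ± 0.13), Aldoa (0.37 ± 0.13) and Pkm (-0.10 ± 0.12) were not called.

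Acacb, the acetyl-CoA carboxylase that restrains fat oxidation, stood at 8.96 and 8.25 against 81.2 and 76.2 CPM (log2 difference -3.19 ± 0.23, adjusted p = 1.82e-06). Elovl6, a fatty acid elongase, stood at 20.2 and 18.97 against 61.98 and 53.8 CPM (log2 difference -1.56 ± 0.30, adjusted p = 0.00325), and Acsl4, an acyl-CoA synthetase, was lower at 127 and 163 against 311 and 268 CPM. Its relatives Acsl3 (0.90 ± 0.14) and Acsl5 (1.01 ± 0.17) were higher, and Fasn, the fatty acid synthase, was not called (log2 difference -0.06 ± 0.16, adjusted p = 0.845). Pparg, a receptor for fatty acids, had counts of 166 and 65 in the positive and 1 and 0 in the negative libraries, a ratio of 208-fold, with a 95% counting interval of 37.04 to 8268. Of 25 fatty acid genes, 5 were higher and 4 lower (3, 3, 3 and 5 in either direction without a library). Cdo1, which breaks down cysteine, was lower at 154 and 142 against 685 and 712 CPM (log2 difference -2.24 ± 0.16, adjusted p = 1.82e-06).

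The prostate stores zinc and citrate, and zinc genes were called in both directions. Slc39a8, a zinc importer, stood at 253 and 231 against 34.3 and 33.8 CPM (log2 difference 2.83 ± 0.17, adjusted p = 3.27e-07), and Slc39a4, another importer, at 33.4 and 24.4 against 4.22 and 6.10 CPM (log2 difference 2.49 ± 0.43, adjusted p = 0.002). Slc30a2, which moves zinc into vesicles, stood at 26.4 and 28.7 against 59.5 and 58.04 CPM (log2 difference -1.09 ± 0.19, adjusted p = 0.00203), and the metallothioneins Mt1 and Mt2 were lower, at a log2 difference of -1.02 ± 0.19 and -1.08 ± 0.20. These 5 were the called genes of 16, and all were stable. Of 22 genes of the citrate cycle, 1 was called, or 4.55% against 11.9% of all genes tested. That gene, Me1, which encodes malic enzyme, stood at 48.5 and 49.99 against 25.3 and 23.7 CPM. Its call was lost without Trop2-negative library 2.

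Retinoid genes, which make and sense retinoic acid, were higher in 6 of 15 tested and lower in 1 (5, 5, 5 and 7 higher without a library). Aldh1a3, which makes retinoic acid, stood at 32.6 and 24.9 against 0.468 and 0.555 CPM (log2 difference 5.77 ± 0.46, adjusted p = 3.31e-06), and Rarg, a retinoic acid receptor, at 75.4 and 69.8 against 26.1 and 16.1 CPM (log2 difference 1.78 ± 0.22, adjusted p = 0.000144). Aldh1a1, another synthesis enzyme, was not called (log2 difference -0.37 ± 0.16, adjusted p = 0.171).

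Glutathione genes split by enzyme. Gsto1 stood at 325 and 239 against 25.9 and 21.3 CPM (log2 difference 3.58 ± 0.24, adjusted p = 1.82e-06) and Gsta4 at 137 and 106 against 28.9 and 41.4 CPM (log2 difference 1.79 ± 0.20, adjusted p = 4.87e-05), while Gclc, the rate-limiting enzyme of glutathione synthesis, stood at 42.5 and 49.3 against 105 and 107 CPM (log2 difference -1.21 ± 0.17, adjusted p = 0.000339) and Gstm1 was lower, at a log2 difference of -0.93 ± 0.14. Of 23 tested, 5 were higher and 4 lower (4, 3, 5 and 5 higher and 2, 4, 4 and 3 lower without a library). Ion and fluid transport genes also exchanged members. The beta subunits of the sodium pump moved apart, with Atp1b1 at 984 and 913 against 427 and 490.0 CPM (log2 difference 1.05 ± 0.13, adjusted p = 0.000139) and Atp1b3 at 68.96 and 59.4 against 211 and 214 CPM (log2 difference -1.73 ± 0.16, adjusted p = 1.18e-05). The potassium channel gene Kcnn4 was higher by 3.03 ± 0.24, the water channel gene Aqp5 by 2.91 ± 0.34 and the sodium channel gene Scnn1a by 2.39 ± 0.26. Trpv6, a calcium channel gene, was lower, at a log2 difference of -1.40 ± 0.25. Of 19 tested, 7 were higher and 3 lower (5, 5, 5 and 7 higher and 3, 3, 3 and 3 lower without a library).

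Of 19 NF-kB genes, which drive inflammation and survival, 9 were higher (4, 6, 6 and 12 without a library). The subunits Nfkb1 and Nfkb2 were higher by 1.41 ± 0.16 and 1.17 ± 0.16, and the co-regulator Bcl3 by 1.24 ± 0.20. Cxcl16 stood at 259 and 199 against 71.7 and 81.5 CPM and Cxcl17, another chemokine, at 65.4 and 65.7 against 5.15 and 4.81 CPM (log2 difference 3.71 ± 0.41, adjusted p = 8.76e-05). Among genes of MHC class I 30.8% were higher, against 7.91% of all genes tested. Of 13 genes of MHC class I, 4 were higher, but none of these calls was stable (0, 0, 1 and 5 without a library), and B2m was not called (log2 difference 0.35 ± 0.13, adjusted p = 0.104). Of 22 interferon response genes, 3 were higher (0, 0, 0 and 5 without a library), or 13.6% against 7.91% of all genes tested, and no call was stable.

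The gasdermins Gsdmc2, Gsdmc3 and Gsdmc4, whose relatives form pores in membranes, hold sequence found in other genes as well (51.3%, 46.03% and 39.00% of their windows), so their levels were summed. The sum was 395 and 213 CPM in the positive and 0 and 0.739 CPM in the negative libraries. Of 14 genes of the Bcl2 family, 2 were higher, or 14.3% against 7.91% of all genes tested, and the other 12 were not called. Pmaip1, which promotes cell death, stood at 78.1 and 68.1 against 18.3 and 15.9 CPM (log2 difference 2.09 ± 0.23, adjusted p = 4.89e-05). Bcl2l1, which prevents cell death, stood at 167 and 155 against 86.97 and 84.5 CPM (log2 difference 0.91 ± 0.14, adjusted p = 0.000617).

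Of 19 genes of the G2 and M phases, 4 were lower (0, 0, 0 and 6 without a library). Mki67, a marker of dividing cells, stood at 21.04 and 42.4 against 86.8 and 74.5 CPM, a call lost without Trop2-negative library 1, Trop2-negative library 2 or Trop2-positive library 1 (adjusted p = 0.198, 0.103 and 0.209 in turn). Its log2 difference was -1.35 ± 0.38, and -1.95 without Trop2-positive library 2. Lower members were 21.1% of the G2 and M phase list, against 4.0% of all genes tested. Of 20 genes of the G1 and S phases, 3 were higher, or 15% against 7.91% of all genes tested. The stable call was Ccnd2, a cyclin of the G1 phase, at 20.3 and 13.2 against 2.97 and 2.96 CPM (log2 difference 2.50 ± 0.34, adjusted p = 0.000296).

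**Figure D5:**
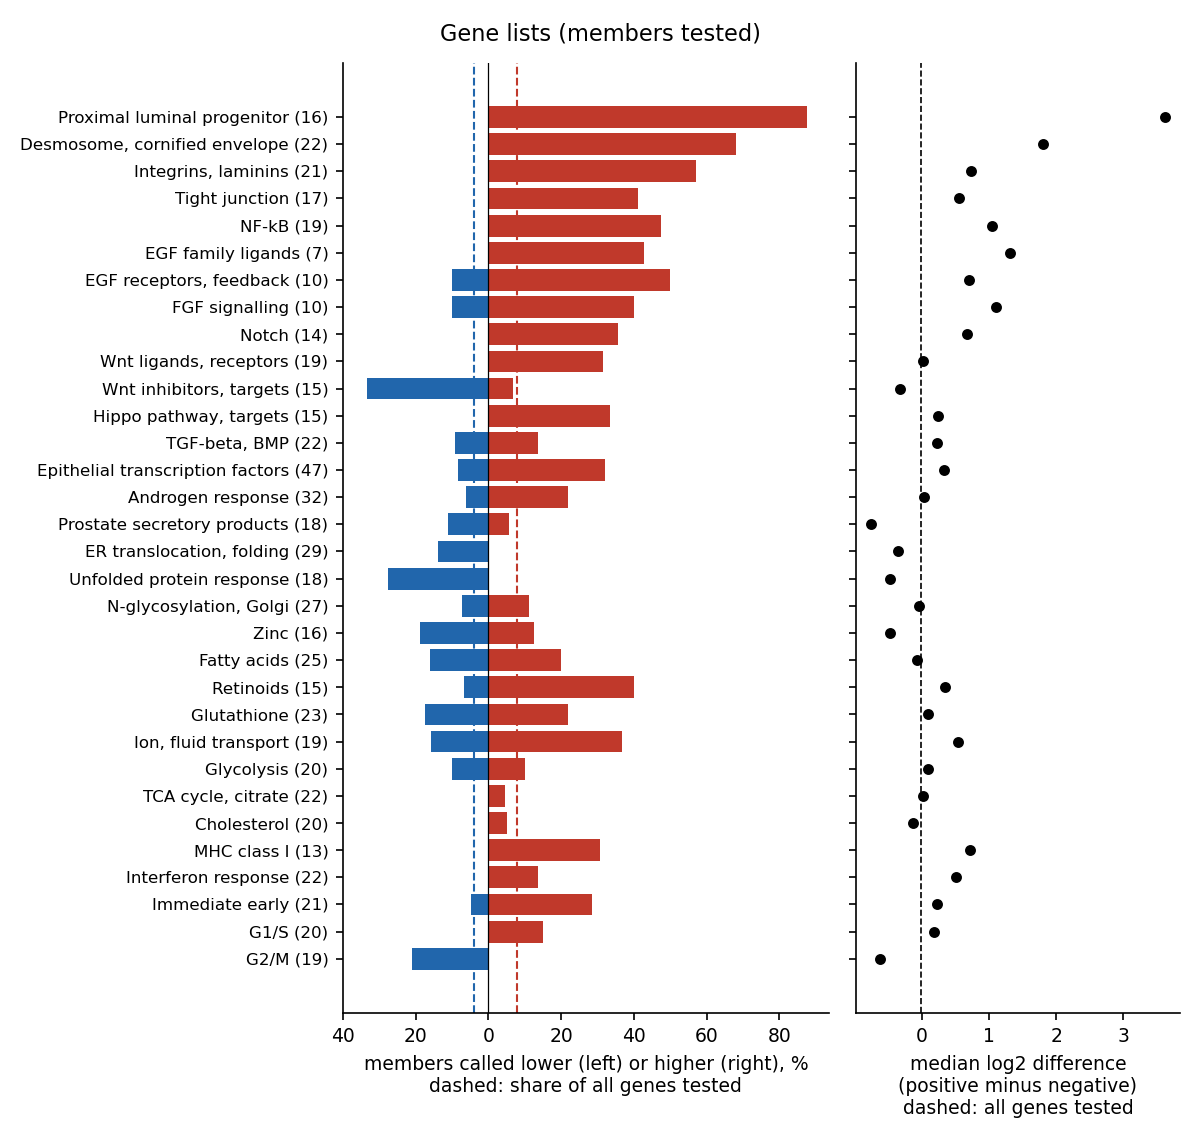
The left panel gives, for 32 gene lists, the percent of tested members (number in brackets) called higher (red, to the right) or lower (blue, to the left), with dashed lines at the 7.91% and 4.0% of all genes tested. The right panel gives the median log2 difference of the tested members, with a dashed line at the -0.02 of all genes tested. Progenitor genes lead with 14 of 16 higher (10, 10, 10 and 14 without a library), and the unfolded protein response and Wnt inhibitors and targets have the highest shares of lower calls.

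On the CPM scale no gene of mitochondrial complex I was called. Of 36 complex I subunits no gene was called by edgeR, none by DESeq2, and none had an unadjusted p under 0.05. Their median log2 difference was 0.04. On log2(TPM + 1) 5 of the 36 were called higher, and their median stood 0.11 above that of all genes. Of 78 cytosolic ribosomal protein genes, 4 were higher (0, 1, 3 and 2 without a library), or 5.13% against 7.91% of all genes tested, with a median of 0.28. On log2(TPM + 1) 67 of the 78 were called higher, and their median stood 0.35 above that of all genes against 0.30 on the CPM scale. Ribosomal protein genes held 9.11% and 9.55% of TPM in the positive and 6.39% and 6.08% in the negative libraries.

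For 1039 genes (7.64%) the 95% interval of the difference lay within -0.5 to 0.5. Among those the naming rule took were Eef1a1, a translation elongation factor, at 4525 ± 475 against 4162 ± 151 CPM (0.12 ± 0.16), and Hsp90ab1, a chaperone, at 2862 ± 527 against 2757 ± 279 CPM (0.05 ± 0.16).

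Beyond the lists, several abundant genes stood out by the size of their change in CPM. Clu, the gene of the secreted chaperone clusterin, stood at 5643 and 4428 against 1748 and 1644 CPM (log2 difference 1.57 ± 0.16, adjusted p = 2.67e-05), and Spink5, a protease inhibitor of stratified epithelium, at 4361 and 2772 against 948 and 952 CPM (log2 difference 1.91 ± 0.23, adjusted p = 0.000144). The cytoskeletal actins Actg1 and Actb were higher by 0.77 ± 0.17 and 0.66 ± 0.15. The first call was lost without Trop2-negative library 1 or Trop2-negative library 2 (adjusted p = 0.0909 and 0.136 in turn) and the second without Trop2-negative library 1, Trop2-negative library 2 or Trop2-positive library 1 (adjusted p = 0.149, 0.147 and 0.0769 in turn). Glul, the glutamine synthetase gene, was lower at 378 and 467 against 859 and 849 CPM (log2 difference -1.02 ± 0.14, adjusted p = 0.000337), and Suco, an endoplasmic reticulum protein gene, at 372 and 479 against 993 and 916 CPM (log2 difference -1.17 ± 0.15, adjusted p = 0.000152).

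Moderate changes with the smallest adjusted p named other parts of the cell. Lmna, the gene of the nuclear lamins A and C, stood at 1343 and 1162 against 435 and 510.2 CPM (log2 difference 1.41 ± 0.15, adjusted p = 2.98e-05). Ly6e, a surface protein of the Ly6 family, stood at 1369.8 and 1243 against 544 and 519 CPM (log2 difference 1.30 ± 0.13, adjusted p = 2.74e-05), and Cbr2, a carbonyl reductase gene, was higher by 1.49 ± 0.18. On the lower side were Slco2a1, a prostaglandin transporter gene, at 61.7 and 61.04 against 170.2 and 167 CPM (log2 difference -1.46 ± 0.18, adjusted p = 0.000139), Etnk1, an ethanolamine kinase gene (-1.34 ± 0.15), Phyh, a peroxisomal enzyme gene (-1.25 ± 0.17), and Edem3, which clears misfolded glycoproteins (-1.06 ± 0.15).

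F5, the gene of coagulation factor V, stood at 58.6 and 41.7 against 0 and 0.185 CPM, a ratio of 600.0-fold, with a 95% counting interval of 107 to 23735. Sult1c2, a sulfotransferase gene, and Eva1a, a gene of autophagy, had no count in either negative library, and were at least 13.1-fold and at least 19.6-fold higher against a floor of 3 counts per library. Psca, the prostate stem cell antigen gene, stood at 551 and 352 against 1.09 and 1.85 CPM (log2 difference 8.27 ± 0.72, adjusted p = 0.00103). Among lower genes, Edn3, the gene of endothelin 3, stood at 0.711 and 3.96 against 32.9 and 22.6 CPM (log2 difference -3.61 ± 0.49, adjusted p = 0.000378), and Cyp21a1, a steroid hydroxylase gene, at 0.427 and 1.15 against 9.37 and 14.8 CPM (log2 difference -3.93 ± 0.62, adjusted p = 0.000896). All of these calls were stable, but the log2 difference was -2.81 and -5.26 for Edn3 without Trop2-positive library 1 or 2, and -4.77 for Cyp21a1 without library 2.

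Set beside the same contrast at 24 months, the sign was the same for 1034 of the 1076 genes called higher and 528 of the 544 called lower. The share with the same sign over all genes tested is not given here. A difference between the ages was called in 7 genes, or 0.0515% of those tested (5, 2, 9 and 70 without a library). Col7a1 was lower in Trop2-positive cells at both ages, at a log2 difference of -1.97 ± 0.16 at 3 and -3.36 ± 0.16 at 24 months. Bex1, a brain-expressed X-linked gene, was higher at both, by 3.34 ± 0.26 and 0.94 ± 0.23. Cyp4a12a, a fatty acid hydroxylase gene of the kidney and liver, stood at 189 and 147 against 49.7 and 78.7 CPM at 3 months, and its difference had the opposite sign at 24 months (1.39 ± 0.21 against -1.22 ± 0.22). It shares 48.9% of its windows with other genes.

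Nrn1, the gene of neuritin, stood at 9.95 and 10.4 against 0.156 and 0.370 CPM in young mice and at 7.59 and 6.10 against 12.6 and 8.28 CPM in old mice. Eif3j2, a translation initiation factor gene, stood at 13.2 and 10.4 against 201 and 193 CPM, and its near copy Eif3j1 at 130.0 and 157 against 2.03 and 3.88 CPM. Eif3j2 shares 90.8% of its windows, so neither is certain alone. The call of Eif3j1 was lost without Trop2-negative library 1, Trop2-negative library 2, Trop2-positive library 1 or Trop2-positive library 2 (adjusted p = 0.165, 0.123, 0.109 and 0.0547 in turn), and their sum was 155 ± 17.0 against 200.1 ± 4.42 CPM. Rmnd1 was not called in young mice (log2 difference 0.44 ± 0.41, adjusted p = 0.568).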

How the data were processed

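RNA of sorted mouse prostate cells was sequenced from stranded mRNA libraries, per the labels' protocols. The authors deposited 1 table per library, which lists 24054 genes with their expected counts and TPM values from RSEM. The submitters' processing notes name bcl2fastq 2.17, Bowtie2 2.1.0, RSEM 1.2.15 and the builds mm10 and GRCm38. The strand setting of the counting is not given in the sources used here. TPM values deposited by the authors were used for shares of transcripts and for limma.

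Expected counts were rounded to whole numbers. Genes passing filterByExpr in the 8 luminal libraries (13598) were fitted with edgeR 4.0.16 (R 4.3.3) with TMM factors, 1 mean per group and robust quasi-likelihood dispersion, so the old libraries share in the estimate of spread. The fit was tested on 1 set of simulated counts of 13598 genes, with 100 genes changed at each size. At a log2 change of 1, 43% of changed genes were called, at 2, 82%, and 6.72% of calls were false. Genes of low abundance were not changed. All groups otherwise had the young Trop2-negative means, and the spread was that of the fit. These shares need not hold for the real counts, where many more genes were called. limma 3.58.1 and DESeq2 1.42.0 served as alternatives. Each gene's 50-base windows were compared with all other transcripts to find shared sequence. Young libraries held between 6099426 and 7238467 counts. Intervals and floors cover counting error only.

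The comparison, its genes and the 50 lists were chosen with earlier results of these data known. Named genes are up to 6 called and 3 uncalled members of each list, the 10 largest CPM changes, the 10 firmest moderate changes and ranks 7 to 16 of the large changes in each direction, 10 near-equal genes, the age-dependent genes and the markers. The S100 and annexin genes, Bpgm, Fos and several keratins, transcription factors and others outside that rule were chosen after their values were seen. Results for several genes were left out and are not reported here.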

Additional observations from a re-analysis of the deposited data

Results flagged for a closer look

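The contrast between the sorts differed between 3 and 24 months in 7 genes, 6 of which are given here, by edgeR's quasi-likelihood test of the interaction with Benjamini-Hochberg adjustment. The log2 difference in young minus that in old mice was -4.31, adjusted p = 4.50e-06 for Eif3j2, and this call held in all 8 alternatives run, although the gene shares most of its sequence with Eif3j1. For Cyp4a12a it was 2.61, adjusted p = 0.00507, a call lost with the replicate block. For Rmnd1 it was -8.46, adjusted p = 0.0177, with 9.42 and 8.43 against 0 and 0 CPM in old mice. For Nrn1 it was 5.83, adjusted p = 0.0235. For Bex1 it was 2.40, adjusted p = 0.0235. For Col7a1 it was 1.398, adjusted p = 0.0397. These 4 calls were lost without Trop2-negative library 1, without Trop2-negative library 2 and with the replicate block.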

How the results depend on the processing

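The count of called genes (1620) ran from 683 to 2618, that of calls over 2-fold (1010) from 572 to 1839, that of called list genes (240) from 148 to 307 and that of age differences (7) from 2 to 70 when 1 young library was left out. Without the 3 luminal libraries high in Svs1 the first 2 counts were 677 and 600. That alternative leaves fewer samples, and library 1 alone for the young Trop2-negative cells. The age differences numbered 16 with a filter of 1 CPM and 68 by DESeq2, and the cause was not tested. Called genes numbered 1596 with RLE size factors, 1810 by DESeq2 and 2208 with no filter. From the 4 young libraries alone 1273 genes were called, and 864 of them changed more than 2-fold. None of the 148 called genes named in the text changed sign in an alternative run, but 20 of the 40 genes named that were not called did so in at least 1. Many of the called genes were named for a small adjusted p or a large change. Counts over named genes, here and in the next sentence, need not hold for all calls. Over 3004 values of single genes and alternatives, 99 lost a call and 42 gained one.

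Replicate numbers were not shown to pair the libraries: deviations of same-numbered young libraries correlated at -0.0588. With the replicate block 1143 genes were called, 829 of them over 2-fold, and 1 age difference was left. Crossed pairings were not run.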
